A study of Homo sapiens with 4 samples.

Results

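Genes of the interferon response and of double-stranded RNA sensing were examined in 4 RNA sequencing libraries of human melanoma cell lines. The set was a list of 37 gene symbols, to which RIGI (formerly DDX58) was added, so 38 genes were looked for among the 18175 genes of the expression table. Rows were found for 34 of the 38. RIGI under either symbol, IFITM1, MX1 and XAF1 had no row and were not analysed here. Every listed row has FPKM (fragments scaled to exon length and library size) values that sum to at least 1.0002 over the 4 libraries.

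The libraries came from A375 and SK-MEL-28, established lines of human cutaneous melanoma, each treated with siNC or with siLINC01291. siNC is the control small interfering RNA, and siLINC01291 targets the long non-coding RNA LINC01291. Each line and treatment was represented by 1 library, so a difference between treatments within a line has no replicate check. Across the whole design the siRNA comparison was repeated only in the second line. All 4 libraries received an siRNA. The treatment label also names an agent given as EL, which it does not explain, and no library without siRNA was analysed here, so no level before transfection can be given.

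Double-stranded RNA in the cell is read by IFIH1 (MDA5), RIG-I and the endosomal receptor TLR3. These signal through adaptors, among them MAVS, to the transcription factors IRF3 and IRF7, which switch on interferon genes. Secreted interferon acts back on cells through STAT2 and IRF9, and the complex they form binds a short promoter element, the interferon-stimulated response element (ISRE), in front of antiviral genes such as the IFIT, OAS and IFITM families and ISG15. Introduced siRNA is itself double-stranded RNA, and its delivery can engage this pathway.

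Library totals ranged from 29351240 to 31815336 counts. LINC01291 had an FPKM of 6.39 in A375 with siNC, 2.28 in A375 with siLINC01291, 8.11 in SK-MEL-28 with siNC and 3.70 in SK-MEL-28 with siLINC01291. Its log2 change over both lines was -1.34 (SE 0.13, adjusted p = 0.0171, edgeR quasi-likelihood test), so the targeted RNA was lower in both treated libraries. Of 8 melanocytic markers, 8 reached an FPKM of 1 in both SK-MEL-28 libraries, and 4 did in both A375 libraries, where MLANA, TYR, DCT and S100A1 were below 1. Their summed FPKM was 92.97 and 133 in A375 (siNC, then siLINC01291), against 1617 and 1936 in SK-MEL-28. The lines therefore differ widely in marker level, and the part of this in the differences between the lines given below was not tested. Of 6 leukocyte markers 1 had a row, LYZ (FPKM 1.57 and 1.94 in A375, below 1 in SK-MEL-28), and of 6 fibroblast markers 1, LUM (3.25 and 3.74 in A375, 7.84 and 8.07 in SK-MEL-28). Of 4 keratinocyte markers 2 had a row, KRT14 (6.16 and 7.32 in A375, below 1 in SK-MEL-28) and KRT10 (18.0 to 27.7), and of 4 endothelial markers 1, KDR (0.784 and 2.37 in A375, below 1 in SK-MEL-28). The part of these in the results was not tested. In bulk libraries like these, fewer cells that express a gene and less RNA per cell cannot be told apart.

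At an FPKM of at least 1, 25 of the 34 genes were present in A375 with siNC, 27 in A375 with siLINC01291, 29 in SK-MEL-28 with siNC and 28 in SK-MEL-28 with siLINC01291. These are 73.5%, 79.4%, 85.3% and 82.4% of the set, beside 69.6%, 70.6%, 64.9% and 66.0% of all genes in the table. The gap between the lines depended on this threshold. At an FPKM of at least 0.5 the counts were 31, 32, 31 and 31 of 34 in the same order. The genes at or above 1 in all 4 libraries numbered 22. They were TLR3, EIF2AK2 and ADAR among the sensors; MAVS, STAT2 and IRF3 among the signalling genes; IFIT3, IFIT5, OAS3, IFITM3, BST2, ISG15 and USP18; PARP9, DTX3L, PARP14, SP100 and SP110; and IFI6, IFI35, IFI44 and ISG20. IFIH1, OAS1 and OAS2 passed only in the SK-MEL-28 pair, and IFITM2 and SAMHD1 only in the A375 pair. DHX58, IRF7 and IFIT2 passed in every library but A375 with siNC. IRF1 passed in A375 with siNC alone and IFIT1 in SK-MEL-28 with siNC alone. IRF9 and IFI27 passed in none.

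The median FPKM of the 34 genes was 3.37 and 3.75 in A375 (siNC, then siLINC01291) and 3.84 and 3.34 in SK-MEL-28. The medians of all genes were 2.89, 2.96, 2.58 and 2.71 in the same order. Summed over the set, FPKM was 209 and 219 in A375 and 359 and 366 in SK-MEL-28. Within each line the siNC and siLINC01291 sums were close, while those of SK-MEL-28 were higher than those of A375. Most of that gap lay in BST2 and IFI6. BST2 reached 69.8 (siNC) and 79.2 (siLINC01291) for SK-MEL-28, against 1.47 and 1.65 for the A375 pair. IFI6 reached 82.2 and 86.1, against 7.93 and 9.94. The medians of the set interleaved between the lines. Neither the sums nor these medians compare the lines gene by gene. In that comparison, given below, the median log2 difference of the 30 genes tested, SK-MEL-28 minus A375, was 0.67, beside -0.02 for all genes. At an adjusted p below 0.05 (edgeR), 20 of the 30 were higher in SK-MEL-28 and 8 in A375, beside 36.1% and 36.3% of all genes tested. The plot of FPKM by gene and library shows that most pairs of points from 1 line lie together and that the lines lie apart.

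**Figure D1:**
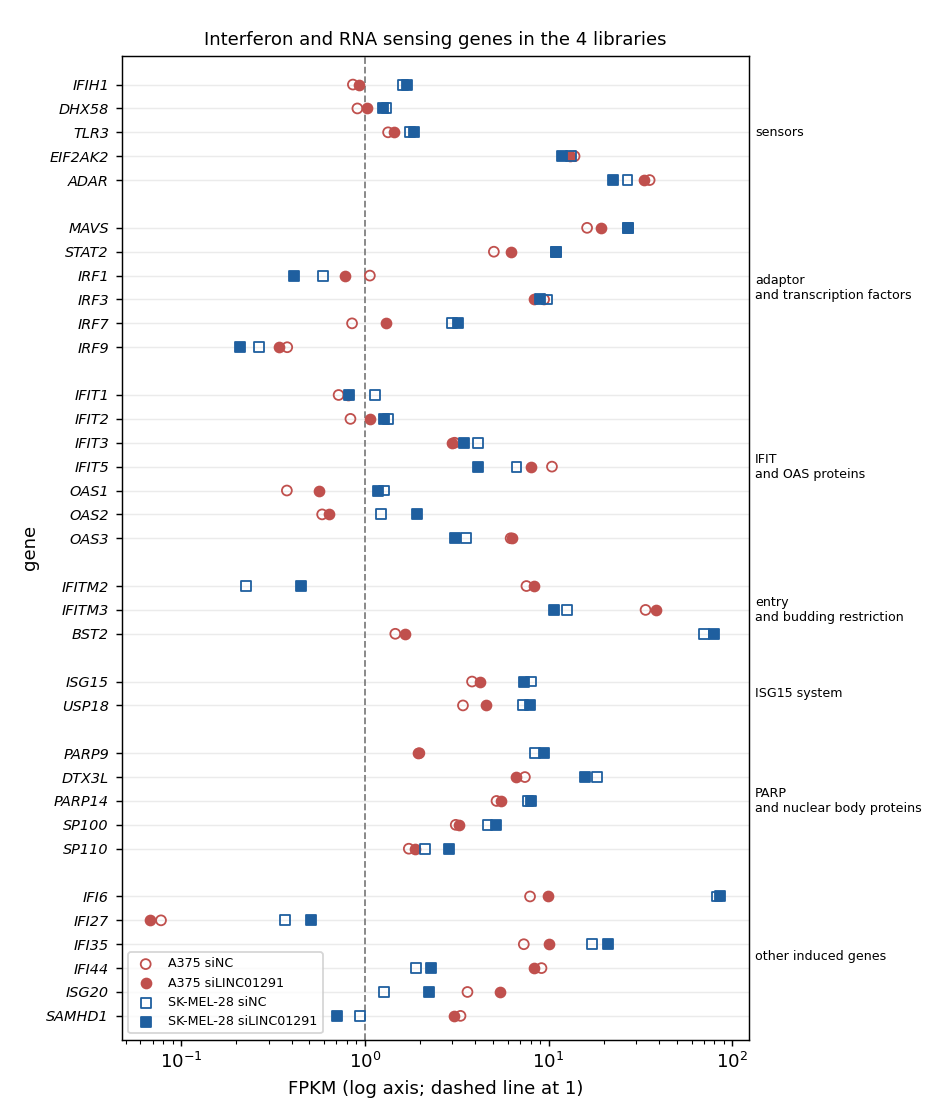
FPKM of the 34 genes in each of the 4 libraries on a log axis, grouped by role; red circles are A375, blue squares SK-MEL-28, open symbols siNC and filled symbols siLINC01291, and each symbol is 1 library with no error bar. The dashed line marks an FPKM of 1, which 22 genes reached in all 4 libraries; BST2 and IFI6 are far to the right in SK-MEL-28.

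Over both lines, 0 of the 30 genes tested rose and 0 fell with siLINC01291 at an adjusted p below 0.05 (edgeR, cell line as a block, adjusted over all 13501 genes tested). Of all genes tested, 0.222% rose and 0.674% fell, and 0 of 30 is close to that background. At an unadjusted p below 0.05 there were 5 of 30, beside 16.9% of all genes. ISG20 and IFI35 were on the higher side, and IFIT5, ADAR and DTX3L on the lower. DESeq2 and limma also called 0 in either direction, with 1 higher and 1 lower at an unadjusted p below 0.05 in DESeq2 and 2 higher and 1 lower in limma. The median log2 change of the 30 was 0.06 and the median size of the change 0.15, beside 0.01 and 0.14 for all genes. The changes ran from -0.56 for IFIT5 to 0.66 for ISG20, and 19 of 30 were positive. IRF1, IRF9, IFIT1 and IFI27 were below an FPKM of 1 in at least 3 libraries and were not tested.

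Within A375, 0 of the 28 genes expressed there (FPKM of at least 1 in either library) were 1.5-fold higher and 0 were 1.5-fold lower with siLINC01291. The background was 4.06% of expressed genes higher and 3.86% lower. Within SK-MEL-28, 2 of 29 were at least 1.5-fold higher, OAS2 and ISG20, and 1 was at least 1.5-fold lower, IFIT5, beside 6.45% and 4.99% of expressed genes. Of the 25 genes expressed in both lines, 10 had a ratio above 1 in both, 7 below 1 in both, and 8 above 1 in one line and below 1 in the other. The plot of within-line ratios shows most points near 0 in both lines, with the wide intervals on the genes of lowest count.

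**Figure D2:**
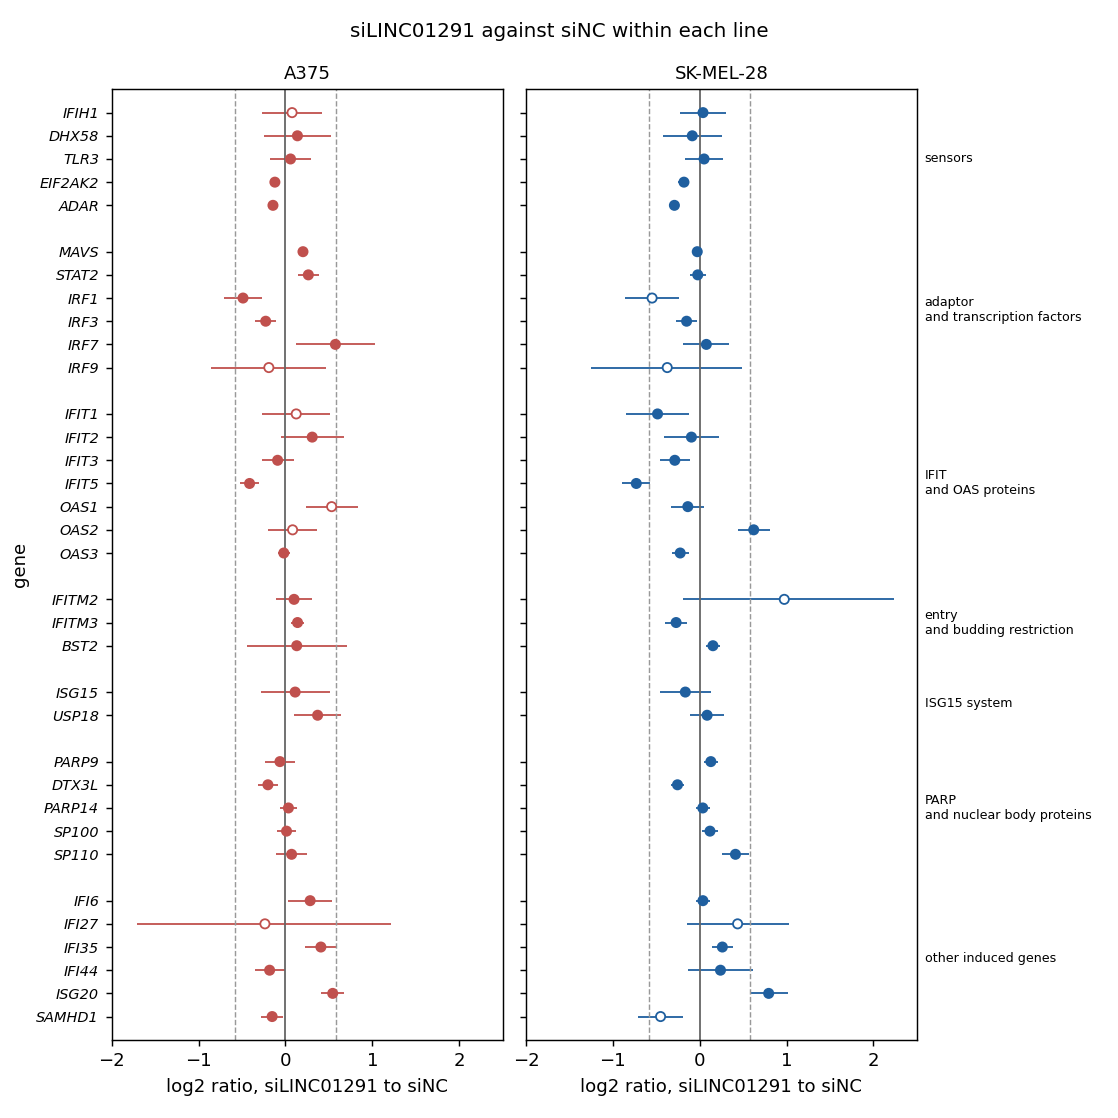
Log2 ratio of siLINC01291 to siNC for each gene within A375 (left) and SK-MEL-28 (right), from counts scaled to the library sizes; bars are exact binomial 95% intervals, which cover counting error only, and open symbols are genes below an FPKM of 1 in both libraries of the line. Dashed lines mark 1.5-fold; no filled symbol passes them in A375, and OAS2, ISG20 and IFIT5 do in SK-MEL-28.

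In the comparison of the lines, most of the genes were called. Of the 30 genes tested, 20 were higher in SK-MEL-28, 8 were higher in A375 and 2, EIF2AK2 and IRF3, were not called. Of all genes tested, 36.1% were higher in SK-MEL-28, 36.3% were higher in A375 and 72.4% were called in either direction, so a call of some kind was the common outcome for any gene. The normalised counts of the lines did not overlap for 29 of the 30, the exception being EIF2AK2, beside 83.5% of all genes tested. The median log2 difference of the 30, SK-MEL-28 minus A375, was 0.67, with a median size of 1.10, beside -0.02 and 0.68 for all genes. The comparison has 2 libraries a line and 1 residual degree of freedom, and the lines differ in everything else too.

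**Figure D3:**
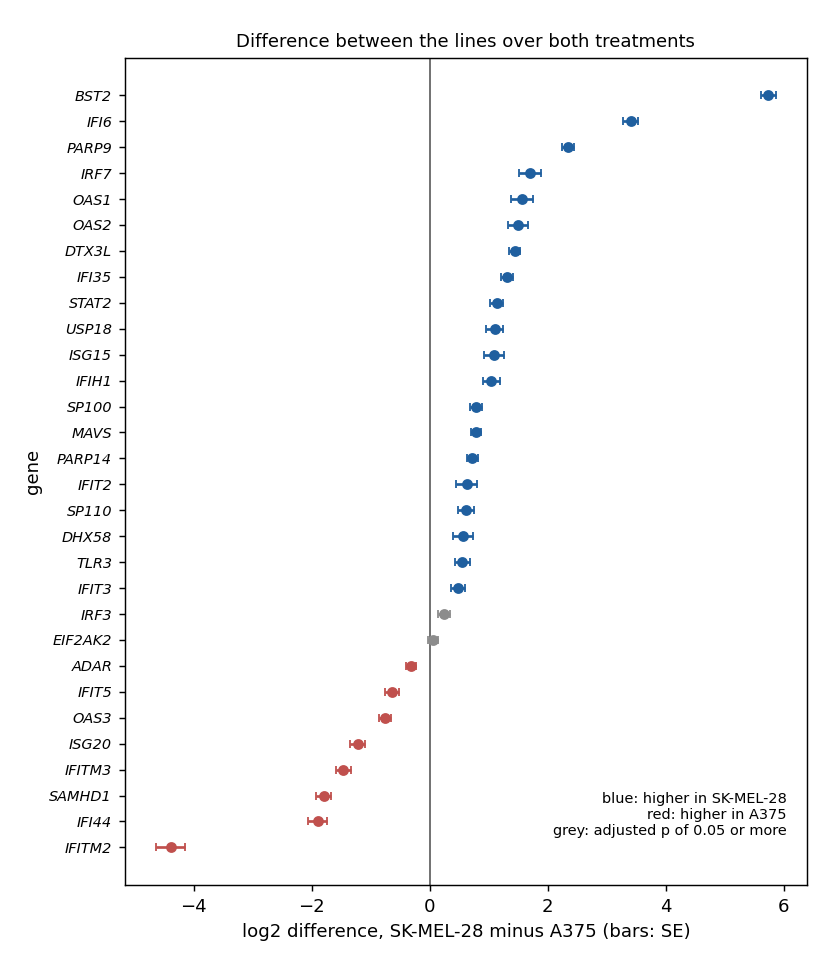
Log2 difference between SK-MEL-28 and A375 over both treatments for the 30 genes tested, from the edgeR fit of 2 libraries against 2; bars are standard errors. BST2 is the highest at 5.74 and IFITM2 the lowest at -4.39, and the 2 grey genes, IRF3 and EIF2AK2, had an adjusted p of 0.05 or more.

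Among the sensors, the cytosolic receptors were transcribed at low levels. IFIH1, which binds long double-stranded RNA, had an FPKM of 0.862 and 0.935 in A375 (siNC, then siLINC01291) and 1.62 and 1.69 in SK-MEL-28. Both SK-MEL-28 libraries lay above both A375 libraries, a log2 difference of 1.05 (SE 0.15, adjusted p = 0.000884, edgeR), while the log2 ratios of siLINC01291 to siNC were 0.07 in A375 and 0.04 in SK-MEL-28. DHX58 (LGP2), a regulator of IFIH1 signalling, had an FPKM of 0.912, 1.03, 1.31 and 1.26 in the same order. TLR3, the endosomal receptor, had an FPKM of 1.34, 1.43, 1.77 and 1.86. Both were higher in SK-MEL-28, by 0.57 and 0.55 on the log2 scale. Those 2 calls were lost with DESeq2 (adjusted p = 0.291 for DHX58 and 0.104 for TLR3) and with limma (0.116 and 0.0783).

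EIF2AK2 and ADAR were the abundant members of the sensor group. EIF2AK2 (PKR), the kinase that halts translation on binding double-stranded RNA, had an FPKM of 13.9 and 13.1 in A375 and 13.2 and 11.9 in SK-MEL-28. Its 4 libraries interleaved, and it did not differ between the lines (log2 difference 0.06, SE 0.08, adjusted p = 0.566, edgeR). ADAR, which edits adenosine to inosine in double-stranded RNA and so keeps a cell's own RNA from being sensed, had an FPKM of 35.5 and 33.1 in A375 and 26.9 and 22.4 in SK-MEL-28. It was 1.24 times as high in A375 (adjusted p = 0.0119, edgeR), a call that was lost when treatment was left out of the model (adjusted p = 0.0829). Its siLINC01291 library was the lower in both lines, and the log2 change of -0.22 (SE 0.08, adjusted p = 0.253) did not pass.

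Of the 6 genes of the adaptor and the factors downstream of the sensors, 4 were tested. Of these, 3 were higher in SK-MEL-28, MAVS, STAT2 and IRF7, beside 36.1% of all genes tested. MAVS, the mitochondrial adaptor of RIG-I and IFIH1, had an FPKM of 16.2 and 19.2 in A375 and 27.1 in both SK-MEL-28 libraries, 1.72-fold higher (adjusted p = 0.000322, edgeR). STAT2, which carries the interferon signal to the nucleus, had 5.04 and 6.23 in A375 and 10.96 and 11.01 in SK-MEL-28, 2.20-fold higher (adjusted p = 0.000154). In neither gene did the lines overlap. IRF7, the factor that amplifies interferon transcription and is itself interferon-induced, had 0.853 and 1.31 in A375 and 3.00 and 3.23 in SK-MEL-28, 3.26-fold higher (adjusted p = 0.000264, edgeR). Its ratio of siLINC01291 to siNC was 1.49 in A375, with a counting interval of 1.09 to 2.04, and its log2 change over both lines was 0.28 (adjusted p = 0.505).

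IRF3, the constitutive factor, had an FPKM of 9.46 and 8.31 in A375 and 9.80 and 9.003 in SK-MEL-28. It was not called between the lines (log2 difference 0.25, SE 0.10, adjusted p = 0.0641, edgeR), though without the filter on low values it was (0.0463). Its exons share 734 bases with BCL2L12 on the other strand, and since strand-aware counting is not stated its count is uncertain. IRF1, a factor of the type II interferon response, had an FPKM of 1.07 and 0.781 in A375 and 0.592 and 0.413 in SK-MEL-28. The siLINC01291 library was the lower of each pair, at 0.713 (0.612 to 0.829) and 0.684 (0.551 to 0.847) times siNC, and the fit without a filter gave an adjusted p of 0.127. Between the lines that fit called IRF1 higher in A375 (log2 difference -0.69, SE 0.15, adjusted p = 0.00286, edgeR). Of the other 3 genes outside the main test, it called IFI27 (2.76, adjusted p = 8.2e-05) and IFIT1 (0.54, adjusted p = 0.0455) higher in SK-MEL-28, and IRF9 (-0.41, adjusted p = 0.243) in neither. IRF9, the DNA-binding partner of STAT2, was low everywhere, at 0.379, 0.341, 0.265 and 0.209, from 22 to 42 counts a library.

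In the IFIT family, whose proteins bind foreign RNA ends, and the OAS family, whose enzymes make the activator of RNase L, neighbouring genes differed in opposite directions between the lines. IFIT2, IFIT3, IFIT1 and IFIT5 lie in 1 cluster on chromosome 10 between positions 89283694 and 89421001 (GENCODE release 29, GRCh38). IFIT3 had an FPKM of 3.08 and 2.98 in A375 and 4.13 and 3.45 in SK-MEL-28, 1.40-fold higher there. IFIT2 had 0.836, 1.06, 1.33 and 1.27, and was 1.54-fold higher in SK-MEL-28. The calls for both were lost with DESeq2 (adjusted p = 0.0853 for IFIT3 and 0.220 for IFIT2) and with limma (0.0750 and 0.101). IFIT1 had 0.721 and 0.808 in A375 and 1.13 and 0.825 in SK-MEL-28, where the ratio of siLINC01291 to siNC was 0.714 (0.555 to 0.917).

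IFIT5, the family member at the end of the cluster, was higher in A375 and had the lowest ratio of the 29 expressed members in SK-MEL-28. Its FPKM was 10.4 with siNC and 8.07 with siLINC01291 in A375, and 6.69 and 4.12 in SK-MEL-28, from 1413, 1125, 862 and 529 counts. The siLINC01291 library was the lower in both lines and the A375 pair lay above the SK-MEL-28 pair. The ratio was 0.751 (0.694 to 0.813) in A375 and 0.603 (0.540 to 0.673) in SK-MEL-28. Over both lines the log2 change was -0.56 (SE 0.12, adjusted p = 0.0971, edgeR), which did not pass the test. The difference between the lines, 1.56-fold, passed (adjusted p = 0.00312) but not with treatment left out of the model (0.107).

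OAS1, OAS3 and OAS2 lie side by side on chromosome 12 between positions 112906777 and 113011723. OAS1 had an FPKM of 0.377 and 0.561 in A375 and 1.27 and 1.17 in SK-MEL-28, 2.95-fold higher (adjusted p = 0.000404, edgeR). OAS2 had 0.586 and 0.639 in A375 and 1.22 and 1.92 in SK-MEL-28, 2.81-fold higher (adjusted p = 0.000297). OAS3, which lies between them, went the other way, with 6.22 and 6.32 in A375 and 3.55 and 3.10 in SK-MEL-28, 1.69-fold higher in A375 (adjusted p = 0.000552, edgeR). OAS2 in SK-MEL-28 and OAS1 in A375 had siLINC01291 to siNC ratios of 1.54 (1.36 to 1.75) and 1.45 (1.17 to 1.79). In the other line OAS2 had a log2 ratio of 0.08 and OAS1 of -0.14, and their changes over both lines did not pass (adjusted p = 0.323 and 0.735, edgeR).

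Among the 30 genes tested, the widest gap in each direction was in a gene that acts on virus entry or release, BST2 and IFITM2. BST2 (tetherin), which holds budding virus to the cell surface, had an FPKM of 1.47 and 1.65 in A375 and 69.8 and 79.2 in SK-MEL-28. It was 53.5-fold higher in SK-MEL-28 (log2 difference 5.74, SE 0.13, adjusted p = 7.21e-07, edgeR), by 53.3-fold among the siNC and 54.1-fold among the siLINC01291 libraries. IFITM3, a membrane protein that blocks virus fusion, went the other way, with 33.7 and 38.2 in A375 and 12.6 and 10.7 in SK-MEL-28, 2.75-fold higher in A375 (adjusted p = 8.17e-05, edgeR). IFITM2, its close relative, had 7.58 and 8.36 in A375 and 0.225 and 0.451 in SK-MEL-28, 21.0-fold higher in A375 (adjusted p = 1.38e-05), from 10 and 20 counts in SK-MEL-28. The sequences of these IFITM genes are nearly the same, so reads may be split between them and both values are uncertain.

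The ISG15 system was about 2-fold higher in SK-MEL-28. ISG15, the ubiquitin-like modifier, had an FPKM of 3.84 and 4.26 in A375 and 8.06 and 7.33 in SK-MEL-28, 2.13-fold higher (adjusted p = 0.00126, edgeR). USP18, the protease that removes ISG15 and restrains receptor signalling, had 3.42 and 4.55 in A375 and 7.28 and 7.88 in SK-MEL-28, 2.15-fold higher (adjusted p = 0.000573). The lines did not overlap in either gene. With siLINC01291 their log2 changes were -0.04 and 0.22 over both lines, and neither passed (adjusted p = 0.937 and 0.498, edgeR).

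All 5 PARP and nuclear body genes were higher in SK-MEL-28, beside 36.1% of all genes tested. PARP9, an ADP-ribosyltransferase that works with the ubiquitin ligase DTX3L, had an FPKM of 1.98 and 1.95 in A375 and 8.45 and 9.42 in SK-MEL-28, 5.08-fold higher (adjusted p = 5.85e-06, edgeR). DTX3L had 7.44 and 6.65 in A375 and 18.4 and 15.8 in SK-MEL-28, 2.72-fold higher (adjusted p = 2.27e-05). Both start from 1 region of chromosome 3 on opposite strands, and their exons share 217 bases. These are 2.43% of the exon bases of PARP9 and 3.7% of those of DTX3L. Since strand-aware counting is not stated, the counts of that stretch are uncertain. PARP14, close by, was 1.65-fold higher, SP100 1.72-fold and SP110 1.54-fold, the last of these not with limma (adjusted p = 0.0519). SP100 and SP110 are nuclear body proteins. In these 3 genes FPKM ranged from 1.74 to 5.49 in A375 and from 2.12 to 8.05 in SK-MEL-28. Exons of SP110 share 170 bases (2.48%) with SP140 on the other strand, so the counts of that stretch are uncertain too. Shorter overlaps of this kind were found for IFIT2 (65 bases, with LIPA) and EIF2AK2 (35 bases, with GPATCH11).

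Of the remaining induced genes, IFI6, a small endoplasmic reticulum protein, showed the second widest gap in favour of SK-MEL-28. Its FPKM was 7.93 and 9.94 in A375 and 82.2 and 86.1 in SK-MEL-28, 10.6-fold higher (adjusted p = 2.19e-06, edgeR). IFI27, another small protein of that family, was far below it, at 0.0779 and 0.0680 in A375 (10 and 9 counts) and 0.368 and 0.508 in SK-MEL-28 (45 and 62 counts). IFI35 had 7.34 and 10.0 in A375 and 17.2 and 21.0 in SK-MEL-28, 2.48-fold higher (adjusted p = 7.59e-05, edgeR). Its siLINC01291 library was the higher of each pair, by a ratio of 1.33 (1.17 to 1.501) and 1.198 (1.10 to 1.31), and the change over both lines did not pass (log2 change 0.33, adjusted p = 0.207).

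The other 3 genes of this group were higher in A375. IFI44 had an FPKM of 9.16 and 8.30 in A375 and 1.90 and 2.28 in SK-MEL-28, 3.72-fold higher in A375 (adjusted p = 8.30e-05, edgeR). SAMHD1, which depletes deoxynucleotides, had 3.32 and 3.07 in A375 and 0.945 and 0.706 in SK-MEL-28, 3.48-fold higher in A375 (adjusted p = 3.92e-05). ISG20, an exonuclease that degrades RNA, had 3.62 and 5.43 in A375 and 1.27 and 2.25 in SK-MEL-28, from 806, 1246, 269 and 475 counts, and was 2.33-fold higher in A375 (adjusted p = 0.000170, edgeR).

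ISG20 was also the gene with the largest positive change over both lines. The siLINC01291 library was the higher in both, at 1.46 (1.33 to 1.60) times siNC in A375 and 1.74 (1.49 to 2.02) times in SK-MEL-28. The log2 change was 0.66 (SE 0.12, adjusted p = 0.0777, edgeR), short of the threshold. Without the filter on low values the adjusted p was 0.0361. ISG20 and IFIT5 had the lowest adjusted p of the 30 genes, with changes of opposite sign.

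Promoter sequence was set beside these values. RefSeq windows of 300 bases, from 250 before to 50 after an annotated start (GRCh38.p14), were given for 31 of the 38 genes, in 42 windows. The ISRE core was searched as GAAANNGAAA on both strands. It was found in 19 of the 31 genes (61.3%), beside 4.38% of the 27305 genes with a window, and in 54.8% of the 42 windows beside 3.57% of all 35116. The list was made of interferon response genes, so this excess belongs to the list and is no result of these libraries. The interferon-gamma element, searched as TTCNNNGAA, which reads the same on both strands, was found in 11 of 31 (35.5%), beside 9.38%. In BST2, IFI27, IFITM1 and MX1, which are 4 genes, a match of the second overlapped one of the first. The map of ISRE matches shows them on both strands and at varied distance from the start.

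**Figure D4:**
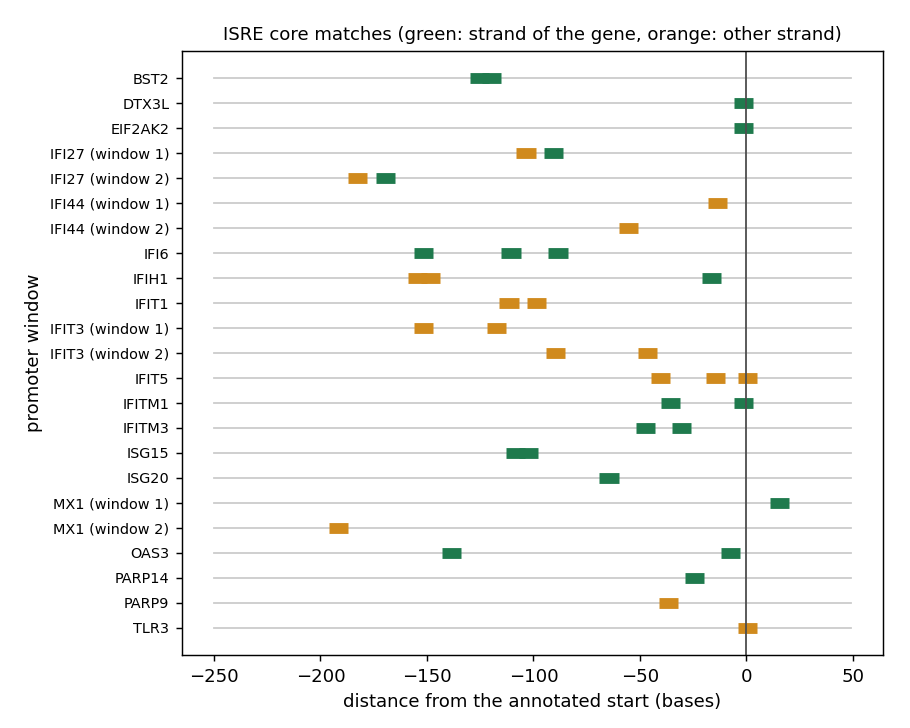
Positions of ISRE core matches in the promoter windows that hold one, in bases from the annotated start; each row is a window, green marks the strand of the gene and orange the other strand. Matches lie from 196 bases before to just after the start, and IFIH1, IFIT5 and IFI6 hold 3 each.

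The windows of 6 genes with a match are printed here, 5′ to 3′ on the strand of the gene, with ISRE core matches in capitals. They were chosen after the values were seen: BST2 and IFI6 for the widest differences in favour of SK-MEL-28 among the 30 genes, IFITM3 as a gene higher in A375, ISG20 and IFIT5 for the largest changes with siLINC01291, and DTX3L for the match it shares with PARP9. In IFIT5 the matches lie on the other strand and read as the reverse complement. In BST2 the capitals are 2 overlapping matches.
BST2 (chr19:17405581-17405880, minus strand): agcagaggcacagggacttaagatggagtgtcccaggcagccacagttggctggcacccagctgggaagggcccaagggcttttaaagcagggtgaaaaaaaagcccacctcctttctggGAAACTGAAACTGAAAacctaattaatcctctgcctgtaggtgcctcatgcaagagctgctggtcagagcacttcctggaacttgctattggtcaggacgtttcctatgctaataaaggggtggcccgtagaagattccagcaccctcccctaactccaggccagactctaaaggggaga
IFI6 (chr1:27672143-27672442, minus strand): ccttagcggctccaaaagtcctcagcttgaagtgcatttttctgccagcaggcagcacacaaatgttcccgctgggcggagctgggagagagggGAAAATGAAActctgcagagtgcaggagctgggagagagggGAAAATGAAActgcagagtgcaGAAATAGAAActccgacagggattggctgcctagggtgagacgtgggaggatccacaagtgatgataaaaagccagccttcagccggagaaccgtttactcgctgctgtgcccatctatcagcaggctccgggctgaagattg
IFITM3 (chr11:320811-321110, minus strand): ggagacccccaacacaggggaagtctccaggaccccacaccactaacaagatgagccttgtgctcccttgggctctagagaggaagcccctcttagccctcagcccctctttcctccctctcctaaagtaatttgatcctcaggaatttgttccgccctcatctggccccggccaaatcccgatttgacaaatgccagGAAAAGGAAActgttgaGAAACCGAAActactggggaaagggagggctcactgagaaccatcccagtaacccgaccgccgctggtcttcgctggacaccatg
ISG20 (chr15:88638766-88639065, plus strand): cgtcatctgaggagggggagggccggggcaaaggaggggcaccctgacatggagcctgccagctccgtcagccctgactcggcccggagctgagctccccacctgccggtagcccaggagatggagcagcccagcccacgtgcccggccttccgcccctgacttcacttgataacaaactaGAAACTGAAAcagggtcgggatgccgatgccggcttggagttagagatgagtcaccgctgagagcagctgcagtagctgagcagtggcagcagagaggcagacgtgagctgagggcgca
IFIT5 (chr10:89414318-89414617, plus strand): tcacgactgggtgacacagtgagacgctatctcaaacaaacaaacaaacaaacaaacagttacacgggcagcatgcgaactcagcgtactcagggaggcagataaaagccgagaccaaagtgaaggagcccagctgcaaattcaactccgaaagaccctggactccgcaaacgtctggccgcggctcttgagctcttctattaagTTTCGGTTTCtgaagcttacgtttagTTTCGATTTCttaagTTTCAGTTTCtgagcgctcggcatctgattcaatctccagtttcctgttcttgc
DTX3L (chr3:122564088-122564387, plus strand): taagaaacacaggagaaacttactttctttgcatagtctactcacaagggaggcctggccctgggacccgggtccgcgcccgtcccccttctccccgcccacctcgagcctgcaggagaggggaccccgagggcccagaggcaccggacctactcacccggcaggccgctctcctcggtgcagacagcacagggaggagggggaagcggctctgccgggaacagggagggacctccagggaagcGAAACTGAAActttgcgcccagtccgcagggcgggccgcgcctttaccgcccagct

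The match in the DTX3L window, at chr3:122564332-122564341, is the same one that the PARP9 window holds, since these windows share 137 bases, so 1 site was counted for both genes. The windows printed were chosen after the values were seen, so they do not show how genes with a match lay between the lines. Among all tested genes with a match, IFIH1, TLR3, IFIT3, BST2, ISG15, PARP9, DTX3L, PARP14 and IFI6 were higher in SK-MEL-28 (edgeR). IFIT5, OAS3, IFITM3, IFI44 and ISG20 were higher in A375, and EIF2AK2 was not called. Of all genes tested, 36.1% were higher in SK-MEL-28 and 36.3% in A375. ISG20 and IFIT5, with the largest changes under siLINC01291 in opposite directions, both hold the core. No match was found in the windows of ADAR, MAVS, STAT2, IRF1, IRF9, OAS1, SP100, SP110, IFI35, SAMHD1, RIGI or XAF1, which says only that these letters are not in the windows searched.

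In the 3′ untranslated regions (UTRs), the 7-base words TCTATGA and CTATGAA were looked for in the principal transcript of each gene (GENCODE release 29). These words had been picked on these same data, so their link with lower values is no independent result. They were found in 5 of the 34 genes, EIF2AK2, MAVS, IFIT5, OAS3 and SAMHD1, beside 14.4% of 12154 genes searched. The UTRs of these 5 ran from 2353 to 9963 bases, and most of the other members had shorter ones. UTR length was not taken into account. All tested genes with a word had a median log2 change of -0.11 over both lines, beside 0.02 for those without. The changes of the 5 were -0.56 for IFIT5, -0.28 for SAMHD1, -0.15 for EIF2AK2, -0.12 for OAS3 and 0.09 for MAVS, none of which passed. IFIT5 holds both words joined, OAS3 and SAMHD1 hold CTATGAA once, MAVS holds it at 2 places, of which the first is given, and EIF2AK2 holds the words apart. Sites are printed here with the word in capitals and its position counted from the first base of the UTR.
IFIT5, position 992: aagtgactTCTATGAAgctttttt
OAS3, position 2647: aaaacataCTATGAAgcctctga
SAMHD1, position 185: ttactataCTATGAAaagcatta
MAVS, position 5653: gcccaaggCTATGAAggcctcat

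Another 122 genes of the pathway were listed by role, of which 85 had a row and 80 were tested. None of the 13 interferon genes listed had a row. With siLINC01291, 0 of 80 rose and 0 fell over both lines (edgeR), beside 0.222% and 0.674% of all genes tested. An unadjusted p below 0.05 was found for 11 of the 80, beside 16.9% of all genes. Their median log2 change was -0.0043. The lowest adjusted p was that of STAT3, a signal transducer of cytokine receptors, with an FPKM of 8.54 and 12.4 in A375 and 4.99 and 7.95 in SK-MEL-28 (log2 change 0.57, SE 0.09, adjusted p = 0.0590, edgeR). UBE2L6, the enzyme that conjugates ISG15, had 11.7 and 16.4 in A375 and 23.4 and 33.5 in SK-MEL-28 (log2 change 0.46, adjusted p = 0.0940). Both were higher in the siLINC01291 library of each line, and neither passed.

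Between the lines, 35 of the 80 were higher in SK-MEL-28, 26 higher in A375 and 19 not called, beside 36.1% and 36.3% of all genes tested in the 2 directions. Receptor genes and their kinases with a row were mostly higher in SK-MEL-28: IFNAR1 by 1.24 on the log2 scale, IFNGR1 by 1.53, IFNGR2 by 1.66, JAK1 by 1.17 and JAK2 by 0.57. The receptor genes IFNAR2 and IL10RB had no row and were not analysed here. TYK2, with a log2 difference of -0.05, was not called. IFNLR1, the receptor subunit for type III interferon, was higher in A375, with an FPKM of 1.08 and 1.22 there and 3 counts in each SK-MEL-28 library. Among sensing cofactors, TRIM25, TICAM1, UNC93B1 and PRKRA were higher in SK-MEL-28, and IKBKE, NLRX1, AGER, TOMM70, TANK, DDX3X, DHX9 and TARBP2 in A375. G3BP1, DHX29, ZCCHC3 and ZC3HAV1 were not called. Among negative regulators, TNFAIP3, PTPN1 and RNF125 were higher in SK-MEL-28, and SOCS3, IRF2BP1, PCBP2, PTPN2, PTPN11 and PIAS1 in A375. OTUD5, TRIM27, IRF2BP2 and CYLD were not called.

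Cytosolic DNA sensing genes were split between the lines. CGAS, the enzyme that makes cyclic GMP-AMP on binding DNA, had an FPKM of 0.031 and 0.030 in A375 (4 counts in each library) and 5.24 and 5.02 in SK-MEL-28. STING1, the receptor of that messenger, had 6.55 and 7.32 in A375 and 0.297 and 0.255 in SK-MEL-28. Each line thus had an FPKM of at least 1 for 1 of the pair and not for the other, with log2 differences of 7.51 and -4.48 (adjusted p = 1.49e-06 and 2.68e-06, edgeR). AIM2 was higher in A375, with 3 counts in each SK-MEL-28 library, and IFI16 was higher in SK-MEL-28 by 0.89.

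Of 35 other interferon-induced genes tested, 21 were higher in SK-MEL-28 and 9 in A375, beside the same 36.1% and 36.3% of all genes. RTP4 was higher in SK-MEL-28 by 4.80 on the log2 scale, TDRD7 by 2.68, GBP3 by 2.66 and HERC5, the ligase for ISG15, by 2.58. The others higher there were APOL1, DDX60L, APOL2, PLSCR1, TRIM21, PARP10, CMPK2, GBP1, UBE2L6, ZNFX1, NMI, TRIM5, TMEM140, SP140L, CMTR1, TRIM56 and PML, with log2 differences from 0.30 to 2.32. MX2, a relative of MX1 that restricts retroviruses, was higher in A375, with an FPKM of 5.18 and 5.98 there and 0.324 and 0.296 in SK-MEL-28. ISG20L2, NLRC5, PNPT1, STAT3, HERC6, TRIM14, PARP12 and SHISA5 were also higher in A375, by 0.29 to 2.03. LGALS3BP, IRF2, SAMD9 and APOL6 were not called.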

How the data were processed

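Messenger RNA was captured by its poly(A) tail and sequenced by Illumina chemistry, per the labels' protocols. Reads were cleaned and freed of duplicates with fastp, mapped by HISAT2, merged with StringTie transcripts and counted by HTSeq, per the labels' protocols; the submitters' processing notes name hg19, DESeq2 and edgeR without a role, and the sources used here do not state strand handling. The authors deposited whole-number counts, FPKM, TPM and CPM per gene in 1 table. FPKM, as deposited by the authors, were used for levels and for the filter. The deposited CPM were used only for an alternative count of the genes present, and the deposited TPM were not tested.

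The counts were fitted here with edgeR 4.0.16 (TMM scaling, quasi-likelihood test, cell line and treatment, all 4 libraries) for the 13501 genes whose FPKM reached 1 in 2 libraries or more, with Benjamini-Hochberg adjustment over all of them and a threshold of 0.05. Its p-values rest on 1 residual degree of freedom per gene, with each gene's spread moderated by that of all genes tested. With 1 library per line and treatment, the residual is how far the siRNA difference departs between the lines. It is not a spread between replicates. The cell line is a block because both libraries of a pair come from the same line. Within a line, log2 ratios used a prior count of 2 and no test, and exact binomial 95% intervals of count ratios cover counting error only. DESeq2 1.42.0, limma 3.58.1 on log2(FPKM + 1), other scaling, filters and models were the alternatives.

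The members and gene lists were chosen with earlier results of these data known. Every member is accounted for. Of the other listed genes, those that passed a test were named, with at most 4 more per list, those of highest mean FPKM. Gene positions are from GENCODE release 29 (GRCh38), not the authors' build, and promoters from RefSeq (GRCh38.p14).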

Additional observations from a re-analysis of the deposited data

Results flagged for a closer look

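IFITM3, the membrane protein that blocks virus fusion, had ratios on opposite sides of 1 in the 2 lines. Its log2 ratio of siLINC01291 to siNC was 0.14 in A375 (ratio 1.10, counting interval 1.05 to 1.16) and -0.27 in SK-MEL-28 (ratio 0.829, interval 0.757 to 0.907). The intervals lie on opposite sides of 1 but cover counting error only, each line has 1 library per treatment, and the difference between the lines was not tested. Reads may be split between IFITM3 and its near-identical relatives.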

How the results depend on the processing

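With 1 library per line and treatment no replicate could be left out, and no untransfected library was analysed here. The counts of called genes thus rest on 1 residual degree of freedom per gene and on spread shared across genes. No call of a member for siLINC01291 was made with the other scaling (RLE), DESeq2, limma or an FPKM of at least 5. DESeq2 gave no adjusted p for 6 of the 30 genes. The fit without the cell line block made no call either, but it leaves the difference between the lines in the residual. It had 0 of 30 at an unadjusted p below 0.05 in either direction (edgeR), so it cannot decide whether members changed. Without a filter 1 member rose, ISG20. Among the other pathway genes, 2 rose with DESeq2 (TRAF3, named after its values were seen, and STAT3) and 1 without a filter (STAT3). With an FPKM of at least 5, fewer genes were tested (18) and 10 members were higher in SK-MEL-28. Within SK-MEL-28, 0 members were higher and 0 lower by 2-fold, and 0 were higher by 1.5-fold at an FPKM of at least 5. An FPKM of at least 5 was reached by 14 and 15 members in A375 and by 15 and 15 in SK-MEL-28. The changes over both lines that reversed were small: IFITM3 without the block (0.031), ISG15 with limma (0.00063) and IFI44 with DESeq2 (0.027) and limma (0.027). The line difference of EIF2AK2 reversed with limma (-0.10). The cause was not tested. Genes at a few counts, such as IFITM2 and IFI27 in 1 line, are limited by depth.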
